A study of Homo sapiens with 2 samples.

Results

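PRMT5 is an arginine methyltransferase that works in a complex with WDR77 and places symmetric dimethyl marks on core histones and on splicing proteins. It is not known to read DNA sequence by itself and is generally brought to chromatin by other factors. Chromatin immunoprecipitation (ChIP) recovers DNA that was crosslinked to a protein, and a peak is a stretch of the genome where such DNA piles up above the level a peak caller expects.

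The peaks described here are narrow PRMT5 peaks that lie next to another peak but outside the crowded parts of the genome. They were chosen by measured values of the peak list, namely their positions and widths. Peaks on the mitochondrial sequence and on Y were left out. The remaining 2815 peaks were counted in windows of 1 Mb, and the 24 windows with 10 or more peaks were dropped with their 611 peaks. Of the other 2204 peaks, 1881 were narrower than 300 bp. Among these, 424 had another remaining peak of any width at most 10 kb away, measured from the end of one to the start of the next, and are called members below. They make up 14.9% of the 2840 peaks of the list.

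The study profiled MDA-MB-231, a breast cancer line of human origin, without treatment. It has 1 library made with an antibody against PRMT5 and 1 library of input DNA made without an antibody, so nothing below has a replicate. Only the PRMT5 peak list was analysed here, and the input was not. Each peak has a score, on the −log10 scale of a q-value, in which a higher value is a stronger peak, and the depth of the library is unknown because the list holds no read counts. Coordinates are on hg19 and are counted from 1. Gene positions, base composition and sequence on hg19 were not analysed here, so the peaks are placed by cytogenetic band, and no peak was assigned to a gene.

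Because positions and widths chose the members, and the score comes from the same library and caller, the values below describe this list and no test was made on them. Where a share is given with an interval, it is the exact 95% binomial interval, which reflects only how many peaks or groups were counted. Neighbours enter as if independent, so the intervals over peaks are too narrow. Intervals of medians were taken from ranks.

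The members formed 217 groups. A group is a run of peaks, each at most 10 kb from the next, that holds at least 1 member. These groups held 505 peaks, the 424 members and 81 wider peaks. Pairs were the usual form, with 173 of 217 groups (79.7%, 95% exact interval 73.8 to 84.9%). A further 27 groups had 3 peaks, 10 had 4, 5 had 5, and 1 group each had 6 and 7. The pairs held 301 of the members, the groups of 3 held 66, and the 17 larger groups held 57. A neighbour was present for 22.5% of narrow peaks outside the dense windows (424 of 1881, interval 20.7 to 24.5%). Among wider peaks outside these windows the share was 36.2% (117 of 323, interval 31.0 to 41.7%), and 36 of those 117 had only wider peaks as neighbours and so belong to no group here.

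Most groups were made of narrow peaks alone. Of the 217, 148 (68.2%, interval 61.6 to 74.3%) held no peak of 300 bp or more, and these contained 324 of the members. The other 69 groups held 100 members beside the 81 wider peaks. Among the pairs, 128 joined 2 narrow peaks and 45 joined a narrow and a wider peak.

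Each gap in a group is at most 10 kb by the rule, which limits how long a group can be. The median span of the groups, from the first start to the last end, was 2811 bp, with quartiles of 1406 and 6420 bp. Pairs had a median span of 2612 bp, groups of 3 of 3762 bp and groups of 4 or more of 7660 bp. The shortest group was a pair in 16p13.3, on chromosome 16 at 2011100 to 2011526, which spanned 427 bp. Its peaks of 139 and 196 bp were 92 bp apart and scored 3.10 and 6.95, both below the median of the whole list, 7.80. The longest lay in 5p13.2, on chromosome 5 at 33834510 to 33855083, and spanned 20574 bp. Its 4 peaks, all narrow, scored 19.4, 5.96, 8.58 and 18.2 in order of position, so its outer peaks were the strong ones. Peaks covered a median of 17.5% of a group's span, with quartiles of 6.97 and 42.3%.

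**Figure D1:**
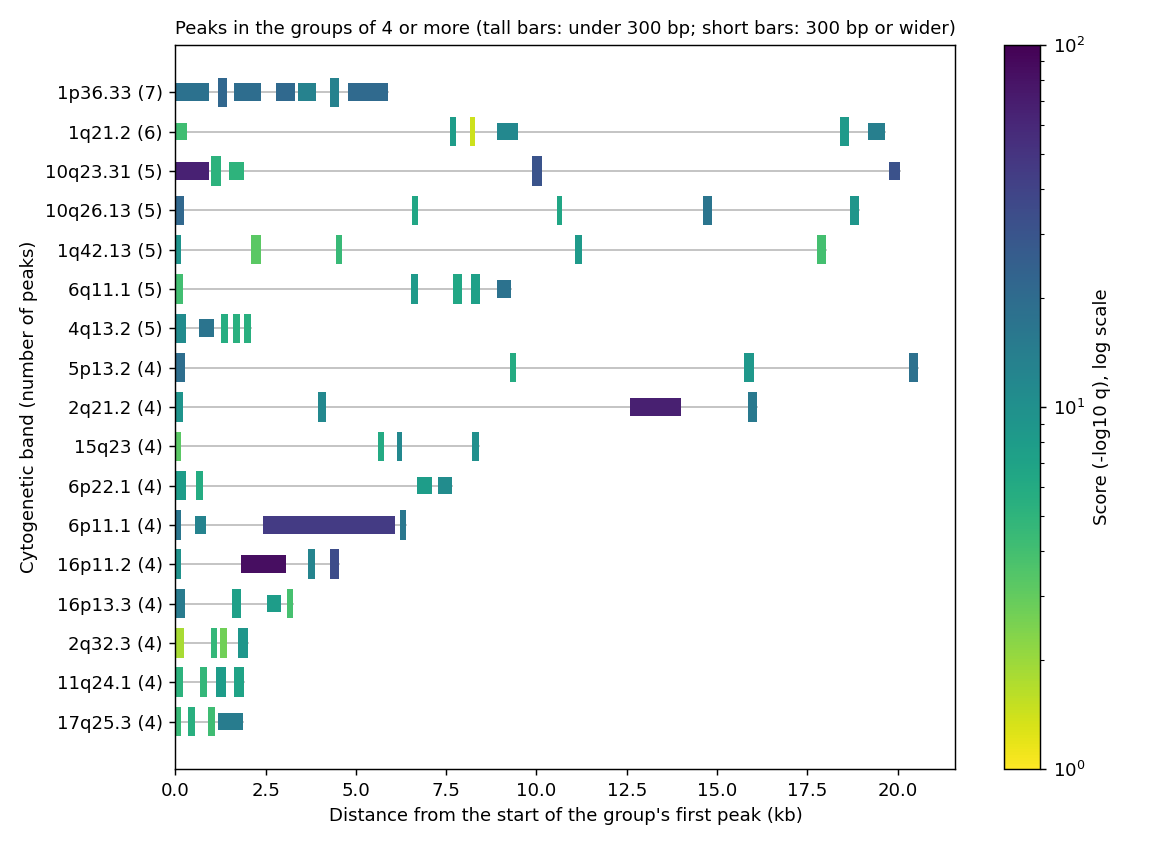
Layout of the 17 groups of 4 or more peaks. The horizontal axis is the distance in kb from the start of the group's first peak, each row is a group named by its band with its number of peaks, tall bars are members, short bars are wider peaks, and colour gives the score on a log scale. The 7 peaks in 1p36.33 cover 73.4% of its span, whereas the 5 peaks in 1q42.13 and in 10q26.13 cover 5.70 and 5.47%.

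Gaps between neighbours ran from 53 to 9865 bp. Over the 288 gaps the median was 1805 bp, with quartiles of 390 and 5276 bp. Of them, 45 (15.6%, interval 11.6 to 20.3%) were at most 200 bp, 118 (41.0%, interval 35.2 to 46.9%) at most 1000 bp, and 76 (26.4%, interval 21.4 to 31.9%) over 5000 bp. The gaps thus spread over the whole allowed range, and the limit of 10 kb does not fall at a break in them: 9 gaps lay between 9000 and 10000 bp, and 11 between 10000 and 11000 bp. Gaps beside a wider peak were shorter, with a median of 708 bp (n = 92), than gaps between 2 narrow peaks, with a median of 2082 bp (n = 196). At most 1000 bp separated the peaks in 55.4% of the former (51 of 92, interval 44.7 to 65.8%) and 34.2% of the latter (67 of 196, interval 27.6 to 41.3%). The smallest gap, 53 bp, lay in the group in 10q23.31 between a peak of 922 bp and a member. The largest lay between the 2 members in 9p12, on chromosome 9 at 42819003 to 42829307, which scored 13.6 and 3.57.

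**Figure D2:**
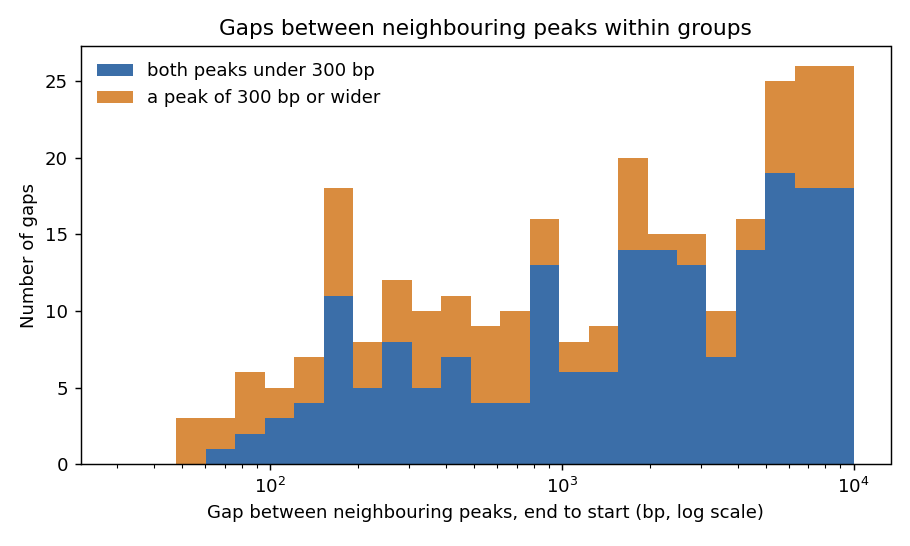
Gaps between neighbouring peaks within the 217 groups, on a log axis in bp, with the number of gaps on the vertical axis. Blue counts the 196 gaps between peaks under 300 bp and orange the 92 gaps beside a wider peak, which lie to the left, with medians of 2082 and 708 bp.

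The members are narrow by the rule, and their median score was close to that of narrow peaks without a neighbour. The members had a median width of 196 bp (quartiles 160 and 235 bp), and 24 members (5.66%) were only 139 bp wide, the least of any peak. Their scores ran from 1.42 to 54.0 with a median of 6.98 (interval of the median 6.57 to 7.58) and quartiles of 4.85 and 11.0. The 1457 narrow peaks without a neighbour had a median score of 7.14 (interval 6.99 to 7.41), quartiles of 5.20 and 10.2, and a median width of 184 bp. The intervals of the 2 median scores overlapped, whereas those of the median widths, 190 to 203 bp and 181 to 188 bp, did not. A score above 20 was found for 28 members (6.60%, interval 4.43 to 9.40%) and for 47 narrow peaks without a neighbour (3.23%, interval 2.38 to 4.27%). These intervals did not overlap, although they take neighbours as independent and are too narrow. At the low end, 28 members (6.60%) and 78 of the others (5.35%) scored below 3.

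The wider peaks of the same groups scored higher, with a median of 14.6 (n = 81, interval 12.8 to 18.8). This was close to the median of the 206 wider peaks without a neighbour, 14.5. The wider peaks in groups were themselves broader, with a median of 429 bp against 374 bp. Members of groups with a wider peak had a median score of 6.93 (n = 100, interval 5.88 to 8.26) and members in groups of narrow peaks only of 7.08 (n = 324, interval 6.54 to 7.80). Peaks in the dense windows had a median score of 8.29 and a median width of 249 bp. Score rose with width to a like degree in members (Spearman rho of 0.43, n = 424) and in narrow peaks without a neighbour (0.42, n = 1457). These are correlations across peaks of 1 library, in which both values come from the same reads and caller.

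**Figure D3:**
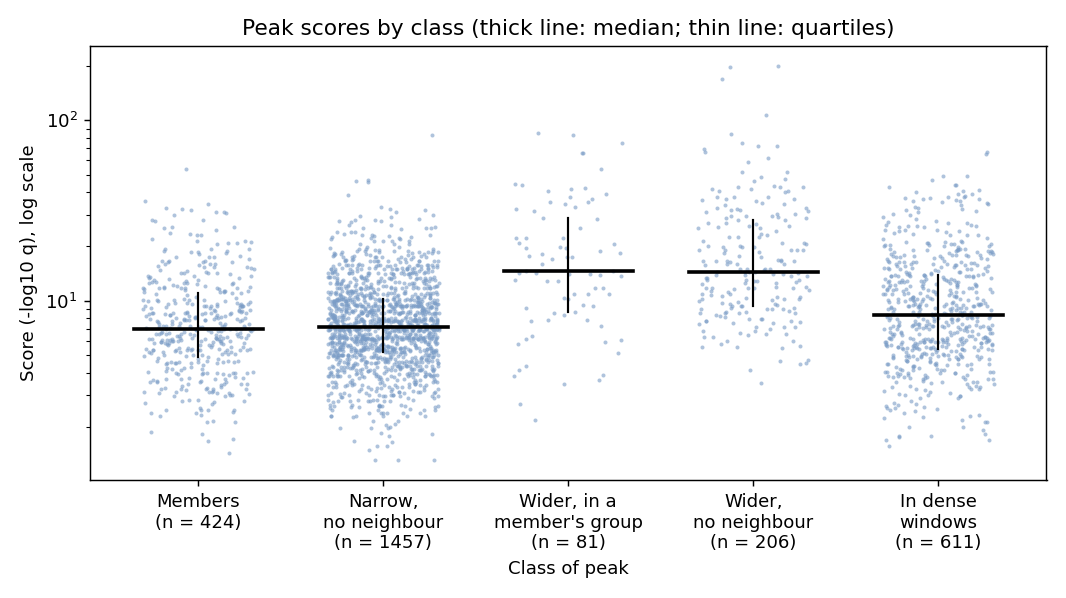
Scores of single peaks by class, on a log axis (−log10 q), with medians as thick lines and quartiles as thin lines. The members and the narrow peaks without a neighbour have medians of 6.98 and 7.14, and both classes of wider peaks have medians near 14.5.

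Within a pair, scores were often unequal. In the 128 pairs of narrow peaks the lower score had a median of 5.40 and the higher one of 9.75, and the median difference was 3.77, with quartiles of 2.03 and 9.20. The scores of the first and second peak of these pairs had a Spearman rho of 0.14, a weak relation between peaks that share the library and the locus. In the 45 mixed pairs the wider peak scored higher in 34 and the narrow peak in 11. The median difference, wider minus narrow, was 7.28, with quartiles of 1.50 and 15.3. Over all 69 groups with a wider peak, the highest score belonged to a wider peak in 56 (81.2%, interval 69.9 to 89.6%). By distance, the median score was 6.03 for the 112 members at most 500 bp from a neighbour (interval 5.48 to 6.91), and 7.65 for the 108 members whose nearest neighbour was over 5 kb away (interval 6.55 to 8.50).

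**Figure D4:**
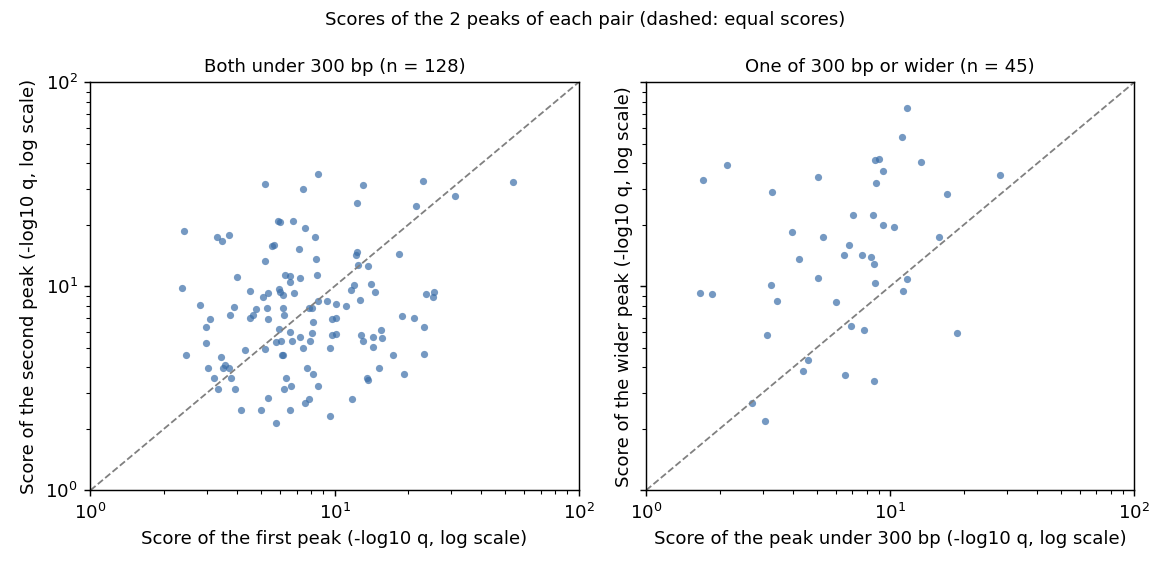
Scores of the 2 peaks of each pair, both axes on a log scale (−log10 q), with the dashed line at equal scores. Points of the 128 narrow pairs scatter on both sides of the line, and 34 of the 45 mixed pairs lie above it, where the wider peak is the stronger.

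Of the 10 groups with the strongest members, 8 were pairs, close to the share of pairs among all 217 groups (173, 79.7%). The highest score of any member, 54.0, belonged to a 251 bp peak in 12q24.32, on chromosome 12 at 127650402 to 127650652. Its neighbour of 258 bp began 159 bp further on and scored 32.4, and the whole pair spanned 668 bp. Both were thus far above the median member. A like pair in 12q22, on chromosome 12 at 95377591 to 95378358, had scores of 23.1 and 32.8 across a gap of 285 bp. The pair in 1p34.2, on chromosome 1 at 43938214 to 43941932, was strong on both sides too, with 31.3 and 27.9, although 3280 bp lay between its peaks. In 11q13.3, on chromosome 11 at 69064750 to 69069377, a wider peak of 394 bp scored 35.2 and the member 28.1.

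In other pairs only 1 peak was strong. On chromosome 8 at 119028633 to 119031122, in 8q24.11, the scores were 8.59 and 35.7. The pair in 3q12.1, on chromosome 3 at 99760308 to 99766524, had 5.20 and 31.8, and that in 1p22.3, on chromosome 1 at 85787368 to 85794927, had 7.44 and 29.9. In 5q14.3, on chromosome 5 at 82864077 to 82873094, they were 13.0 and 31.2 across a gap of 8605 bp. These pairs were named for their stronger peak, so that a weaker partner is built into the choice.

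The group with the most peaks lay near the start of chromosome 1, in 1p36.33, at 564448 to 570340. Its 7 peaks scored 18.1, 21.9, 19.6, 21.0, 13.0, 13.2 and 20.7 in order of position, all above the median of the list. Gaps of 81 to 397 bp separated them, and only 2 of the 7 were under 300 bp. As background, this band is known to hold a long nuclear copy of mitochondrial DNA. The mitochondrial sequence itself is also a peak of this list and was left out here. Whether reads of the one were aligned to the other was not tested.

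The second largest group, with 6 peaks, lay in 1q21.2 on chromosome 1 at 149804138 to 149823781. It fell into 3 clumps, a single peak of 325 bp with a score of 4.12, then 3 peaks with scores of 8.03, 1.42 and 11.7, then 2 peaks with scores of 8.26 and 14.0. Gaps of 7279 and 8922 bp divided the clumps, against 391 to 604 bp inside them. The 139 bp peak with a score of 1.42 was the weakest of all members. A group of 4 in 6p22.1, on chromosome 6 at 27791792 to 27799451, had a like layout of 2 close pairs with a gap of 5930 bp between them and scores of 7.98, 5.88, 7.86 and 10.9. As background, both bands hold clusters of replication-dependent histone genes, and whether these peaks lie at such genes was not determined. The 6p22.1 group was chosen after its values were seen.

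The group in 10q23.31, on chromosome 10 at 92671134 to 92691194, was named both for its number of peaks and for a strong member, as was that in 16p11.2. It opened with a 922 bp peak that scored 65.9, followed within 1 kb by peaks that scored 5.23 and 5.10. Further on came a member of 268 bp with a score of 30.7 and a 311 bp peak with a score of 31.4, after gaps of 7968 and 9600 bp. Strong peaks thus stood about evenly along 20061 bp, with weak ones only beside the first. This band is known to hold ANKRD1, a gene induced by the YAP and TEAD factors, among many others, and no peak was placed at a gene.

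Some of the steps between peak centres were alike in 2 groups of 5 narrow peaks. In 10q26.13, on chromosome 10 at 124354856 to 124373775, these steps were 6512, 4006, 4093 and 4070 bp. The last 3 differed by less than 100 bp and the first was longer, so that the coefficient of variation of all 4 was 26.3%. The scores were 21.5, 6.54, 6.54, 16.6 and 8.87. In 1q42.13, on chromosome 1 at 228748250 to 228766269, the steps were 2152, 2296, 6636 and 6729 bp. They were uneven as they stand, with a coefficient of variation of 57.8%. Divided by 3, a divisor chosen after the steps were seen, the last 2 gave 2212 and 2243 bp, beside the first 2. The scores there were low, at 9.19, 3.24, 4.50, 8.25 and 3.94. As background, 1q42.13 is known for a tandem array of 5S ribosomal RNA genes, and 10q26.13 holds DMBT1, a gene built of repeated exons. Whether these peaks lie in repeated sequence was not tested, and the like steps were noticed after the values were seen.

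In 4q13.2 and 11q24.1 the peaks were packed more tightly. The group in 4q13.2, on chromosome 4 at 68264643 to 68266744, placed 5 peaks in 2102 bp, with gaps of 110 to 368 bp. Its only wider peak, of 400 bp, scored 17.0, and the members scored 11.1, 5.80, 5.33 and 5.51. In 11q24.1, on chromosome 11 at 121958405 to 121960305, 4 members lay at centre steps of 673, 492 and 495 bp and scored 5.18, 4.77, 7.97 and 6.91. Its steps were the most even of the 17 groups with 4 or more peaks, with a coefficient of variation of 18.8%, followed by 1p36.33 with 19.8% and 17q25.3 with 21.5%, and the least even were those in 6p22.1, with 134.6%. The group in 11q24.1 was chosen after its values were seen.

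Members flanked a wide and strong peak in the groups of 4 in 16p11.2 and 2q21.2. Groups of 4 were named by their highest score, so that a strong peak is built into this choice. The groups of 4 in 5p13.2 and 11q24.1 held no wider peak. In 16p11.2, on chromosome 16 at 33961174 to 33965713, a peak of 1229 bp scored 84.9, the highest score in any of the groups. Members with scores of 9.57, 12.5 and 34.6 lay on both sides of it, at most 1676 bp from the next peak. In 2q21.2, on chromosome 2 at 132999273 to 133015391, a peak of 1400 bp scored 66.3 and its 3 members 9.20, 11.6 and 15.4. The flanks were looser there. The members that scored 9.20 and 11.6 lay before the wide peak, the nearer across a gap of 8413 bp. The member that scored 15.4 lay 1868 bp after it. A further group of 3 narrow peaks lay within 100 kb of this group in 2q21.2.

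Of the 217 groups, 10 (4.61%, interval 2.23 to 8.31%) lay within 1 Mb of a centromere band, and they held 23 members (5.42%). The share of narrow peaks without a neighbour within that distance was 3.50% (51 of 1457, interval 2.62 to 4.58%). The centromere bands themselves, 3.40% of the length of these chromosomes, held 7 groups (3.23%, interval 1.31 to 6.53%) and 23 single narrow peaks (1.58%, interval 1.00 to 2.36%). That length includes any part inside the 24 dropped windows, whose 611 peaks are not counted here. How much of it reads can be aligned to was not determined, so the length is no measure of the share to be found there. The median score was 7.47 in the 23 members and 6.98 in the other 401. Among these 10 were both groups on chromosome 6 named for their number of peaks. The one in 6p11.1, at 58773780 to 58780178, had a peak of 3665 bp with a score of 44.6 between narrower peaks that scored 16.5, 12.8 and 16.1. The one in 6q11.1, at 61905138 to 61914419, had scores of 4.02, 8.35, 6.41, 7.47 and 17.7. The group in 16p11.2 was also among the 10, at 634287 bp from the centromere band. Beside a dropped dense window lay 5 groups, and for 0 narrow peaks had the only neighbour been removed with such a window.

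By chromosome, groups were found on 22 of 23. Chromosome 1 had 22 groups, chromosome 6 had 18 and chromosome 9 had 16. Chromosome 20 had the most for its length, 0.159 per Mb (10 groups), followed by chromosome 9 with 0.113 per Mb, and X and 13 had the fewest among those with a group, 0.0258 and 0.0260 per Mb. The share of narrow peaks with a neighbour ran from 14.8% on chromosome 7 (16 of 108, interval 8.71 to 22.9%) to 34.0% on chromosome 15 (17 of 50, interval 21.2 to 48.8%) among the chromosomes with a group. The intervals of these 2 chromosomes overlapped. Narrow peaks outside dense windows numbered 71 over 63.0 Mb on chromosome 20 and 101 over 141 Mb on chromosome 9. They numbered 32 over 155 Mb on X and 37 over 115 Mb on chromosome 13. Among these chromosomes, those with more groups per Mb also had more narrow peaks per Mb. Whether the densities or the shares move with the number of peaks per Mb across all chromosomes was not tested. Chromosome 21 had 0 of 17, with an exact interval that reaches 19.5%.

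**Figure D5:**
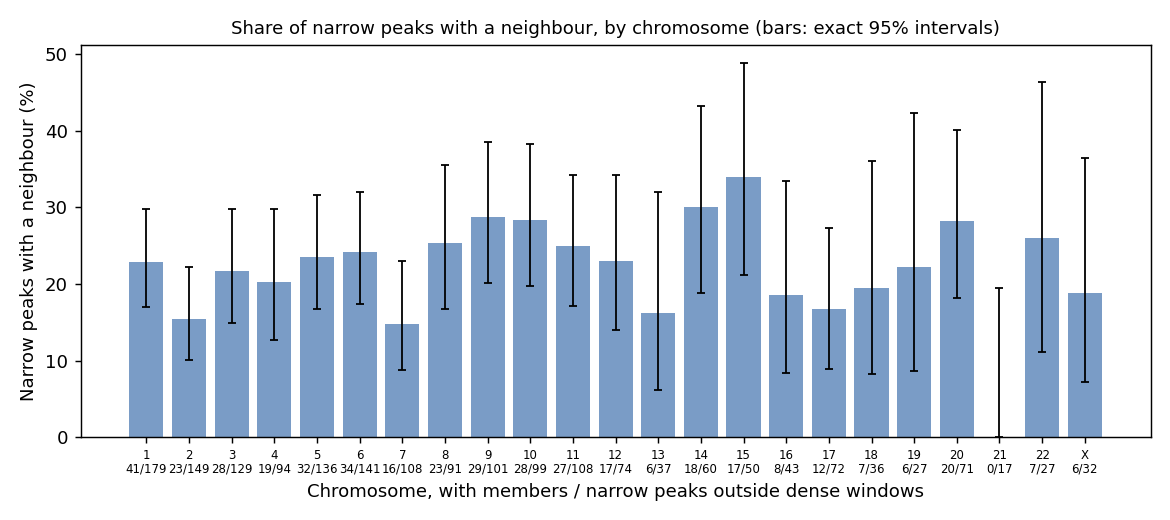
Share of narrow peaks outside dense windows that have a neighbour, in percent, by chromosome, with exact 95% binomial intervals and the counts under each bar. The shares range from 14.8 to 34.0% on chromosomes with a group, with wide, overlapping intervals.

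Bands that stay pale in Giemsa staining, which tend to be rich in genes, held 110 of the 217 groups (50.7%, interval 43.8 to 57.5%). They held 50.5% of the narrow peaks without a neighbour, a like share, and make up 42.4% of the length of chromosomes 1 to 22 and X. As for the centromere bands, that length includes dropped windows and parts that reads may not align to. It is thus no measure of the share to be found there. Bands 8q24.21 and 9q21.11 held 4 groups each, the most of any band, and 15q23, 3q12.1, 9q33.3, 1p21.3 and Xp11.3 held 3 each. These counts were not set against the length of a band or its number of narrow peaks. Of all groups, 25 (11.5%, interval 7.60 to 16.5%) had another group within 100 kb. One such run in 9q33.3, on chromosome 9 between 130150755 and 130283818, joined 3 groups with 7 peaks, 6 of them members, that scored 23.2 at most. This run was chosen after its values were seen. A group was alone in its window, with no other peak, in 61 cases (28.1%), and in 84 cases (38.7%) its window held 5 to 9 peaks.

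At the limits of the rule, the widest member measured 298 bp, and the narrowest peak of a group that missed the limit 301 bp. The 16 members of 290 bp or more had a median score of 11.2, and the 4 grouped peaks from 300 to under 310 bp had 11.9. The largest gap inside the limit was 9865 bp and the smallest outside it 10079 bp. The 3 fullest windows that were kept had 9 peaks each and held 18 members, and 3 of the dropped windows had 10.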

How the data were processed

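The authors deposited 1 peak list, from the PRMT5 library, without a header. The authors' score column, as deposited, was read as −log10 q from the peak caller, since its lowest value, 1.30279, is just over 1.30103, the value for a q of 0.05. The submitters' processing notes name CASAVA 1.4, Bowtie2, MACS2 and hg19, without roles or settings. Use of the input as a control, treatment of duplicate and multiply aligned reads, and the distance below which the caller joins peaks are not given in the sources used here, and each could change how many neighbouring peaks are listed.

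The rule was applied in Python 3.11.15 (numpy 2.4.6, pandas 2.3.3, scipy 1.17.1, matplotlib 3.10.9) and tested on simulated lists. Window membership used peak midpoints. Bands came from the hg19 table of circlize 0.4.16. Intervals of medians are binomial order-statistic intervals. Members, comparisons and named regions were chosen with earlier results of these data known. The named groups are the 10 with the most peaks (ties by highest score), the 10 with the strongest member, and those with the longest and shortest span and the largest and smallest gap; any other is said to be chosen later. Gene, GC, repeat and motif results need hg19 sequence or annotation and were not analysed here.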

Additional observations from a re-analysis of the deposited data

How the results depend on the processing

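Of 70 values recomputed under other settings, 52 stayed within the interval of the reported value or, for counts, within 1.5 times. With gaps of at most 1 kb, members fell to 159 and groups to 88, and the medians of span, gap and score were 1140 bp, 285 bp and 6.20. With 5 kb the median span was 1911 bp and the median gap 808 bp, and with 20 kb they were 5951 and 3781 bp, changes that the limit on the gap builds in. Dropping windows of 5 or more peaks left 252 members in 133 groups, 88.0% of them pairs. Among the peaks at or above the list's median score there were 144 members in 82 groups, with a median span of 3917 bp. A width under 200 bp gave 226 members with a median score of 5.99. These 3 settings keep fewer peaks by construction, and beyond that the cause was not tested. Within 5 Mb of a centromere band, a wider zone, lay 11.5% of groups. Moving window edges by 0.5 Mb gave 411 members in 208 groups. Finding neighbours before windows were dropped, and leaving out the 10 groups near centromere bands, were chosen after seeing the data. The former had to return the same members, since 0 narrow peaks had lost their only neighbour with a dropped window. The latter moved no share or median outside its interval and no count beyond 1.5 times. Alternatives that need an hg19 genome or annotation were not run. What depth limits was not determined, for want of read counts. No paired analysis was possible because only 1 library was analysed.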
